A study of Mus musculus with 18 samples.

Results

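The comparison examined here set the retinal pigment epithelium (RPE) of untreated old mice against that of young mice. It used the 11 libraries whose titles read Old (4 libraries) or Young (7 libraries), of 18 libraries in the series, and it was run across all 15944 genes with enough counts to test. The immune genes higher in Old are left aside, and the account follows the other pathways. Young libraries hold RPE of young mice and Old libraries RPE of aged mice, and the design text names no vector for either. The labels give no strain, genotype, sex or age in weeks. The other 7 libraries come from aged mice given AAV2-tTA alone (3 libraries) or together with TRE-OSK (4 libraries). They entered the low-count filter, the scaling and the estimate of the spread. In the fits with M, a rod score or an epithelial score as a covariate, they also helped to set the size of the covariate's effect. The labels do not say whether replicate libraries came from separate animals, so p-values measure the spread between libraries, which may be partly technical.

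The RPE is a single layer of pigmented cells between the photoreceptors and the choroid. It makes melanin, recycles the visual chromophore, engulfs shed photoreceptor tips every day and carries the lipids of those tips away. It also lays down part of Bruch's membrane, the sheet of collagen, laminin and elastic fibre on which it sits. With age, RPE is known for loss of melanin, thickening of Bruch's membrane and lipid deposits.

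The RPE markers were abundant in every library. The summed level of 10 RPE markers (Rpe65, Rlbp1, Best1 and others), in CPM (counts scaled to library size), was 40680 to 67320 in Young and 27480 to 48400 in Old, with the lowest value in Old replicate 4. 2 properties of the libraries cut across the groups and touch many results. The names of Young replicates 5, 6 and 7 carry a letter M that the labels do not explain, and no Old library carries it. Libraries with M had 4040 to 5493 counts on Y-linked genes and the others at most 93. Young replicates 5 to 7 thus held RNA of the Y chromosome at a level that no Old library reached. The labels give no sex, but the 2 age groups were not balanced for this RNA. The second property was RNA of a stratified surface epithelium, the kind that covers the cornea and conjunctiva. A list of 19 markers of such an epithelium, drawn up after these data had been seen, summed to 230.7 to 6814 CPM in Young (median 1365). The sums in Old were 1120, 11042, 6054 and 22195 CPM for replicates 1 to 4. Krt5, a keratin of basal epithelial cells, ranged from 52.3 CPM in Young replicate 7 to 6897 CPM in Old replicate 4. Krt12, a keratin of the corneal epithelium, stood at 1991 CPM in Old replicate 4 and at 85.3 CPM or less in the other 10 libraries. 6 of the 19 markers were called higher in Old and 0 lower, against 5.4% and 4.16% of all genes. The groups overlapped for all 19 markers because Old replicate 1 was as low as Young. The same libraries also differed in rod photoreceptor markers, which summed to 470.9 to 3466 CPM in Young and to 8269, 2476, 2458 and 5741 CPM in Old. The total counts were 19629563 to 31914550 in Young and 19167774 to 32348136 in Old.

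Across all genes, 861 were called higher in Old (5.4% of those tested) and 663 lower (4.16%), together 9.56%, with edgeR's quasi-likelihood test at a Benjamini-Hochberg adjusted p under 0.05. The 2 directions differed in kind. The genes that rose were mostly scarce and changed by a large factor, with a median log2 fold change of 1.68 and a median level of 1.89 on the log2 CPM scale. The genes that fell were mostly abundant and changed little, with a median log2 fold change of -0.47 at a median level of 5.76, against 4.09 for all genes tested. A log2 fold change of 1 or more was seen in 677 of the genes that rose, and one of -1 or less in 72 of those that fell. The 4 Old libraries lay wholly above the 7 Young ones in 3.69% of all genes and wholly below them in 5.61%, together 9.3%. When only the libraries without M were compared (4 Young and 4 Old), 105 genes were called higher and 86 lower (0.694% and 0.569% of those tested there). With M as a covariate 1.98% of the genes were called higher and 1.79% lower. With the mean log2 CPM of the 19 epithelial markers as a covariate in the fit of 18 libraries, 164 were called higher and 168 lower (1.03% and 1.05% of the genes tested). Of the 1524 genes called without the covariate, 1513 kept their direction under it. The part of the epithelial RNA in the change of any gene or list was not tested.

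**Figure D1:**
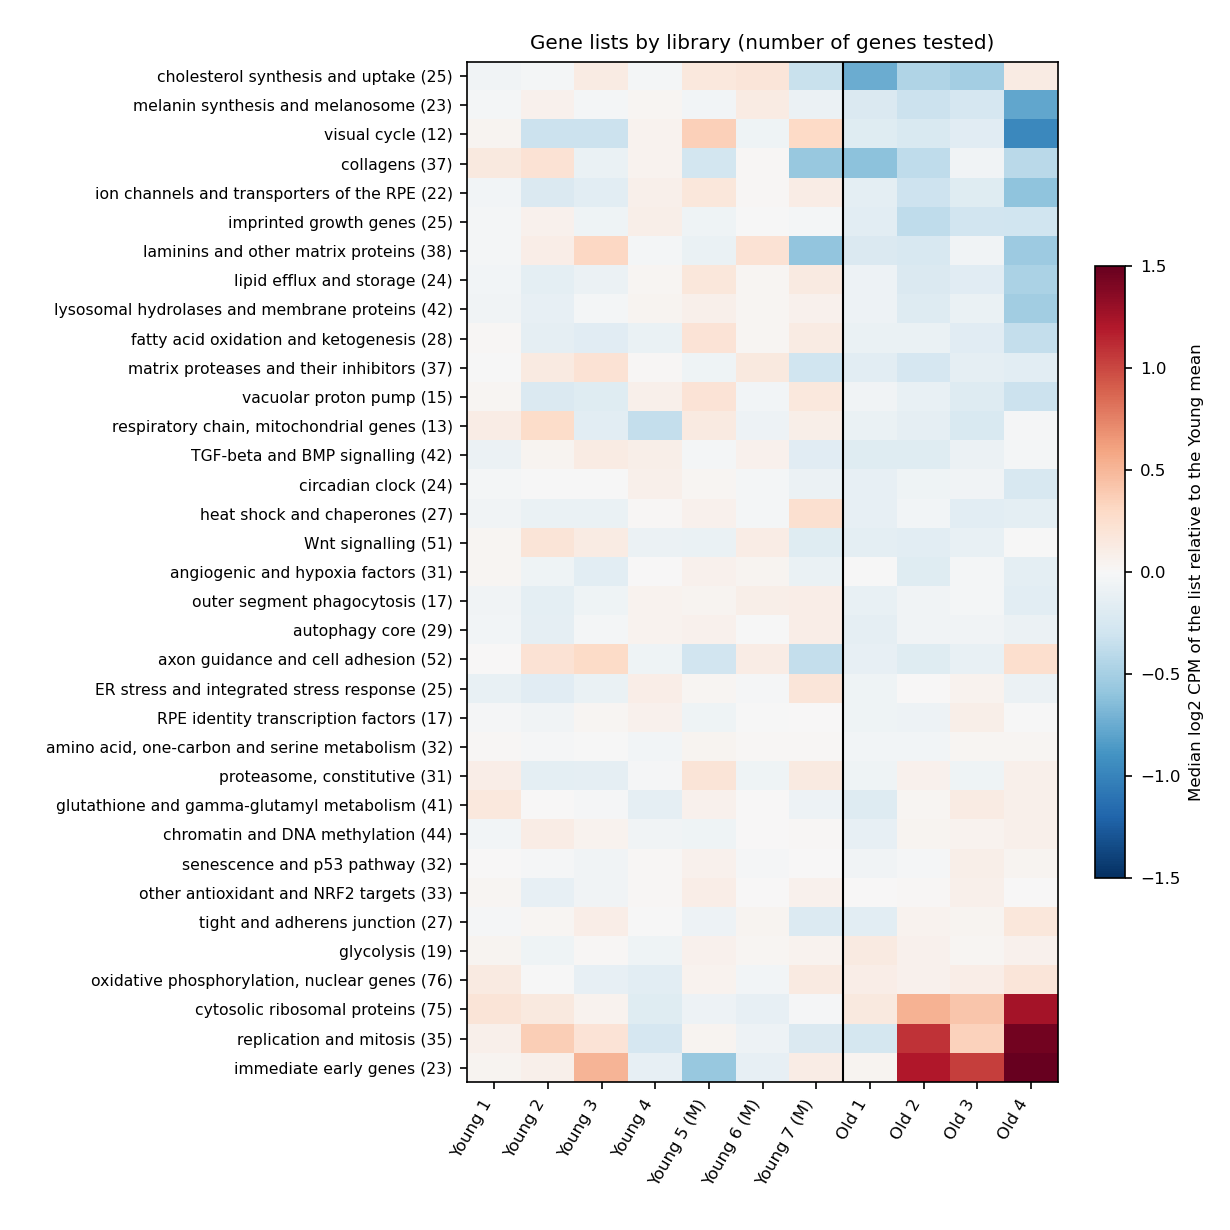
Median log2 CPM of 35 gene lists (rows, with the number of genes tested) in the 7 Young and 4 Old libraries (columns), relative to the mean of the Young libraries for each gene; red is higher, blue is lower, and (M) marks libraries with M in their name. Melanin and imprinted genes were lower in every Old library than in every Young one, cholesterol genes were lower in Old replicates 1 to 3 than in any Young library but not in Old replicate 4, and ribosomal protein, replication and immediate early genes were highest in Old replicate 4.

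Several genes of melanin synthesis fell with age. Of 23 genes tested in a list of melanin and melanosome genes, 4 were called lower and 1 higher, against 4.16% and 5.4% of all genes. The median log2 fold change of the list was -0.44 against -0.004 for all genes tested. The median was -0.33 without Old replicate 4, with 2 genes called lower, and -0.21 with the epithelial covariate, with 3 called lower (Tyr, Pmel and Tyrp1). The median level of the list, relative to Young, was -0.09 to 0.13 on the log2 scale in the Young libraries and -0.22, -0.32, -0.25 and -0.78 in Old replicates 1 to 4, so the groups did not overlap. Tyr encodes tyrosinase, which carries out the first step of melanin synthesis. It stood at 550.5 to 659.8 CPM in Young (median 599) and at 334.6, 367, 349 and 269.2 CPM in the 4 Old libraries. All Old libraries lay below all Young ones, with a log2 fold change of -0.86 (SE 0.13, adjusted p = 0.00131). Tyr was called in each of the 11 fits that left out 1 library, within the libraries without M (-0.80, adjusted p = 0.0289) and with the epithelial covariate (-0.78, adjusted p = 0.0127). Tyr spans chr7:87424771-87493512 in GRCm38.p6.

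Pmel, which forms the fibrils on which melanin is laid down, ranged from 347 to 950 CPM in Young (median 617) and was at 255, 257, 243 and 354 CPM in Old. Only Young replicate 5 fell within the Old range. The log2 fold change was -1.23 (SE 0.30, adjusted p = 0.0229), and -1.63 with the epithelial covariate (adjusted p = 0.00605). Without Old replicate 2 Pmel missed the threshold (adjusted p = 0.0652). Tyrp1, tyrosinase-related protein 1, which stabilises tyrosinase, was at 579 to 1063 CPM in Young (median 878) and at 532, 422, 466 and 574 CPM in Old. The groups were apart by a narrow margin, with a log2 fold change of -0.81 (SE 0.23, adjusted p = 0.0398). That call held in 3 of the 11 fits without 1 library (adjusted p = 0.103 without Old replicate 2), and under the epithelial covariate the value was -1.04 (adjusted p = 0.0309). Slc24a5, a cation exchanger of the melanosome, was at 209 to 251 CPM in Young and at 177, 171, 170 and 116 CPM in Old (log2 change -0.56, SE 0.16, adjusted p = 0.0364). It was called in 3 of 11 fits and not without Old replicate 4 (adjusted p = 0.164) or with the epithelial covariate (adjusted p = 0.258). Mreg, a carrier in melanosome transport, was called higher, but its value in Old replicate 4 (34 CPM) stood far above the other Old libraries (8.42 to 9.46 CPM), and the call was lost without that library (adjusted p = 0.337).

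Tyr, Tyrp1 and Slc24a5 each carry the sequence TCATGTG, a motif bound by the pigment cell regulator MITF, shortly before their start site. The 250 bases before the start site in the RefSeq promoter table are shown because these 3 genes were called lower and hold the motif. The bases run 5′ to 3′ on the gene's strand, with the motif (or CACATGA, its reverse complement) in capitals. They lie at chr7:87493513-87493762 (minus strand), chr4:80833963-80834212 (plus strand) and chr2:125067877-125068126 (plus strand) in GRCm38.p6. The RefSeq gene span of Tyrp1 begins further upstream, at base 80834123, so the last part of its window, motif included, lies within that span.
Tyr: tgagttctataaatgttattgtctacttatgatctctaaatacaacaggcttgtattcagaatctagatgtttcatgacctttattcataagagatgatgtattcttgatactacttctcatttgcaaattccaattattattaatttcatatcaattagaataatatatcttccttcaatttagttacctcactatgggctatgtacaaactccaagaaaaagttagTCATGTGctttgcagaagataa
Tyrp1: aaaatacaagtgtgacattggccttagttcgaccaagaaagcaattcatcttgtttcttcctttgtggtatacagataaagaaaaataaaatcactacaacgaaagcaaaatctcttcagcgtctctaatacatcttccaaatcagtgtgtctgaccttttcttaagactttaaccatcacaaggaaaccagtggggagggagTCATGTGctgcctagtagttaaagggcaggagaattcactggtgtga
Slc24a5: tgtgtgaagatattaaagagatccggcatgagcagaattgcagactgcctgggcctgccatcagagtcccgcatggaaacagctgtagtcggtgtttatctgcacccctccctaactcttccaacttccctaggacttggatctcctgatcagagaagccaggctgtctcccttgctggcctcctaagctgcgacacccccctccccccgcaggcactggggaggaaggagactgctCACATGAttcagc

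Counted back from the start site, the motif lay at bases -22 to -16 in Tyr, -47 to -41 in Tyrp1 and -13 to -7 in Slc24a5. Searched on both strands, TCATGTG was present in these 250 bases in 7 of the 18 genes of the list that the promoter table holds (38.9%), against 313 of 12559 tested genes (2.49%). Of these 7, Dct, Myo7a, Hps1 and Trpm1 were not called. For Pmel, also called lower, no match was found, so the motif does not mark the genes that fell. The related TCACGTG was in 4 of the 18 (22.2%) against 5.2%. Dct, with 2 matches, was at 2361 to 4771 CPM in Young and at 2916, 2240, 2136 and 2548 CPM in Old and was not called (log2 change -0.53, SE 0.19, adjusted p = 0.0864). A match describes letters in the window and does not show that a factor binds there.

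Choroidal melanocytes also make pigment and may be present beside the RPE. A list of 8 melanocyte markers shares Tyr, Pmel, Dct and Mlana with the melanin list. It summed to 3899 to 6779 CPM in Young and 3153 to 3872 CPM in Old. Of the 8 markers, 3 were called lower (Tyr, Pmel and Ednrb) and 0 higher, against 4.16% and 5.4% of all genes. Sox10, on the melanocyte and Schwann cell lists, was at 162 to 287 CPM in Young and at 193, 180, 230 and 80.1 CPM in Old (log2 change -0.27, SE 0.30, adjusted p = 0.582). It did not follow Mlana, since Young replicate 7 had the highest Sox10 and the lowest Mlana (88.4 CPM). Sox10 was lowest in Old replicate 4, as was the sum of the RPE markers. The part of melanocytes in the fall of the pigment genes was not tested. In bulk RNA, fewer cells of a type and less RNA per cell cannot be told apart.

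Part of the cholesterol synthesis route fell with age. Cells make cholesterol from acetyl-CoA through mevalonate and squalene, and the factor SREBP-2, encoded by Srebf2, turns the genes of the route on together when sterols are scarce. Of 25 genes tested, 7 were called lower and 0 higher, against 4.16% and 5.4% of all genes, with a median log2 fold change of -0.35. The list stood at -0.75, -0.45 and -0.51 relative to Young in Old replicates 1 to 3, at 0.12 in Old replicate 4, and between -0.33 and 0.18 in Young. Without Old replicate 4, 6 of the 25 were called and the median was -0.57 (background 1.01% called lower). With the epithelial covariate the median was -0.80 and 13 of 25 were called lower, against 1.05% of all genes. Fewer were called in other fits. With M as a covariate 3 were called lower, and within the libraries without M also 3 (background 1.79% and 0.569%). With the rod score as a covariate 2 were called lower and the median was -0.28, against 200 of all 15944 genes called lower.

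Msmo1, a sterol demethylase of the late route, was at 115 to 197 CPM in Young (median 160) and at 74, 77.7, 69.8 and 108 CPM in Old. The groups were apart, with a log2 fold change of -0.95 (SE 0.18, adjusted p = 0.00534), and the call held in all 11 fits without 1 library and within the libraries without M (-0.93, adjusted p = 0.0318). Fdft1, squalene synthase and the first step committed to sterols, was at 156 to 233 CPM in Young and at 110.3, 122.8, 99.2 and 111 CPM in Old (log2 change -0.72, SE 0.14, adjusted p = 0.00547). Hsd17b7, a sterol ketone reductase, was at 30.8 to 38.7 CPM in Young and at 22.5, 23.1, 21.9 and 24.8 CPM in Old (log2 change -0.58, SE 0.13, adjusted p = 0.0147). For these 2 genes every Old library lay below every Young one, and both calls held in all 11 fits and within the libraries without M. With the rod score as a covariate Fdft1 was called (adjusted p = 0.0331) and Hsd17b7 was not (adjusted p = 0.0803).

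Insig1, which holds SREBP in the endoplasmic reticulum and is itself a target of SREBP-2, was at 164 to 315 CPM in Young (median 214) and at 84.8, 72.3, 81.2 and 173 CPM in Old. Old replicate 4 fell in the Young range and the other 3 were far below it. The log2 fold change was -1.16 (SE 0.32, adjusted p = 0.0353). It was -1.53 when Old replicate 4 was left out (adjusted p = 0.0201). Hmgcs1, which makes HMG-CoA, showed the same split, at 142 to 225 CPM in Young and at 75.3, 100.5, 83.9 and 163.4 CPM in Old (log2 change -0.78, SE 0.21, adjusted p = 0.0355). Insig1 and Hmgcs1 were each called in 5 of 11 fits, with the highest adjusted p without Old replicate 2 (0.0964 and 0.0861). Mvd and Dhcr7 were also called lower (log2 changes -0.76 and -0.47), each in 2 of 11 fits (adjusted p = 0.0988 without Old replicate 2 and 0.102 without Old replicate 4).

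The epithelial covariate added calls that included Idi1, Sqle, Srebf2, Cyp51, Nsdhl and Lss, and dropped that of Mvd. Sqle, squalene epoxidase, was at 98.7 to 194 CPM in Young and at 80.1, 86.7, 82.4 and 142 CPM in Old. Its log2 fold change was -0.63 (SE 0.22, adjusted p = 0.0716), and -1.08 with the covariate (adjusted p = 0.00518). Srebf2 itself was at 187 to 259 CPM in Young and at 154, 152, 187 and 204 CPM in Old, with a log2 fold change of -0.35 (adjusted p = 0.0644) and of -0.57 with the covariate (adjusted p = 0.0069). Of 17 promoters of the list in the sequence table, 1 (Hmgcs1, bases -137 to -129) held the sterol-type motif TCACNCCAC, which 1.21% of all tested promoters held.

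**Figure D2:**
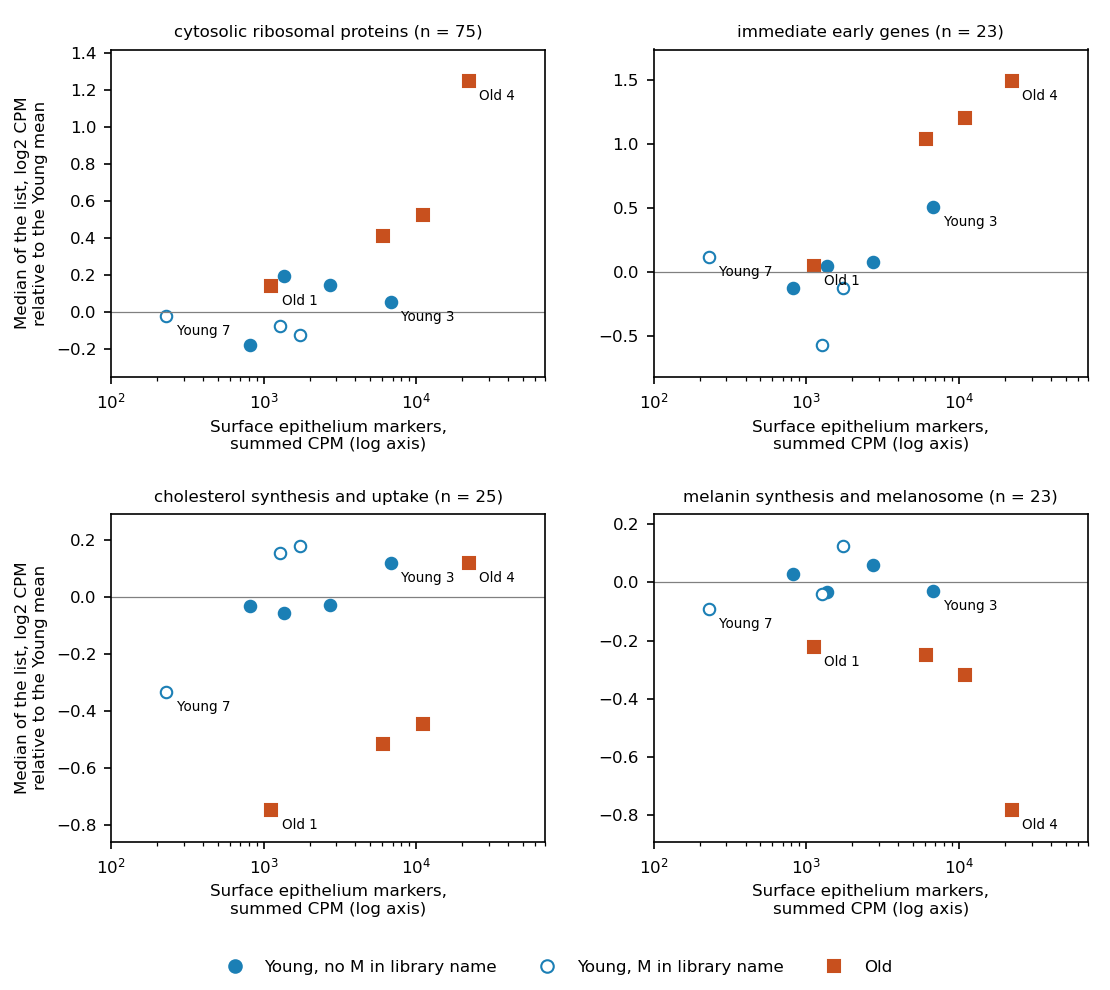
Median level of 4 gene lists (vertical axis, log2 CPM relative to the Young mean) against the summed CPM of 19 surface epithelium markers (horizontal axis, log scale) in each library; circles are Young, open where the library name carries M, and squares are Old. Ribosomal protein and immediate early genes were highest in the Old libraries with the most epithelial RNA, while melanin genes were lower in all 4 Old libraries than in Young, and cholesterol genes in Old replicates 1 to 3 but not in Old replicate 4.

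In neighbouring lipid genes, 3 of 24 genes of lipid efflux and storage were called lower and 1 higher, against 4.16% and 5.4% of all genes. Fads1, the delta-5 fatty acid desaturase, was at 377 to 472 CPM in Young and at 297, 226, 241 and 176 CPM in Old. Its log2 fold change of -0.86 (SE 0.14, adjusted p = 0.00216) was called in all 11 fits and with the epithelial covariate (-0.72, adjusted p = 0.0173), but not within the libraries without M (0.0528). Scd2, a stearoyl-CoA desaturase and another SREBP target, fell by 0.56 on the log2 scale (SE 0.14, adjusted p = 0.026), and Scarb1, the HDL receptor, by 0.64 (SE 0.17, adjusted p = 0.0343). Both were lost without Old replicate 4 (adjusted p = 0.0832 and 0.149). Abcg1, which exports cholesterol to HDL, was at 3.65 to 12 CPM in Young and at 16.1, 16.4, 15.9 and 39.5 CPM in Old. It was called higher (log2 change 1.47, SE 0.40, adjusted p = 0.0345) in 5 of 11 fits and not without Old replicate 4 (adjusted p = 0.207). Macrophages also express Abcg1 and their markers were higher in Old; their part in its level was not tested. Of 28 fatty acid oxidation genes, 1 was called, Cpt1a, the carnitine palmitoyltransferase that admits fatty acids to mitochondria (log2 change -0.43, SE 0.12, adjusted p = 0.0398; 0.177 without Old replicate 4).

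More genes of the extracellular matrix were called lower than higher, and those higher included 3 that anchor stratified epithelia. Of all genes 4.16% were called lower and 5.4% higher. Among 37 collagen genes 6 were called lower and 2 higher, the latter near the share of all genes (median log2 fold change -0.45). Among 38 laminins and other matrix proteins 5 were lower and 3 higher (median -0.27), and among 37 matrix proteases, cross-linking enzymes and inhibitors 5 were lower and 2 higher (median -0.28). The collagen list overlapped between the groups, at -0.57 to 0.22 in Young and -0.62 to -0.06 in Old, since Young replicate 7 was as low as Old. With the epithelial covariate the medians were -0.50, -0.34 and -0.31, with 2, 2 and 3 genes called lower.

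Sparc, osteonectin, a collagen-binding matrix protein that RPE secretes, was at 763 to 1051 CPM in Young (median 952) and at 503, 472, 463 and 325 CPM in Old. The gap between the groups was wide, with a log2 fold change of -1.07 (SE 0.14, adjusted p = 0.000322). Sparc, at chr11:55394159-55420080, was called in all 11 fits, within the libraries without M (-0.98, adjusted p = 0.0339) and with the epithelial covariate (-0.93, adjusted p = 0.00312). Fbn1, fibrillin-1 of elastic microfibrils, was at 293 to 486 CPM in Young and at 231, 205, 201 and 156 CPM in Old (log2 change -0.89, SE 0.17, adjusted p = 0.00511). Col1a2, a chain of type I collagen, was at 49.6 to 89.7 CPM in Young and at 34.6, 38.9, 39.9 and 24.2 CPM in Old (log2 change -1.08, SE 0.18, adjusted p = 0.00266). Bmp1, the proteinase that trims procollagens, was at 29 to 33.1 CPM in Young and at 20.6, 20, 20.4 and 18.4 CPM in Old (log2 change -0.67, SE 0.09, adjusted p = 0.000547). These 3 genes too were called in all 11 fits, within the libraries without M and with the epithelial covariate.

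The basement membrane chains of Bruch's membrane were lower with less support. Col4a3 was at 247 to 326 CPM in Young and at 136, 172, 181 and 90.2 CPM in Old (log2 change -0.94, SE 0.24, adjusted p = 0.0264). Col4a4, its partner, was at 261 to 360 CPM in Young and at 161, 202, 226 and 114 CPM in Old (log2 change -0.82, SE 0.24, adjusted p = 0.0449). The RefSeq spans of these 2 genes overlap at their starts, so reads there cannot be assigned to one of them without strand. The calls held in 9 and 2 of the 11 fits, and neither held without Old replicate 4 (adjusted p = 0.116 and 0.193) or with the epithelial covariate (0.189 and 0.272). Lamb1, a laminin chain, fell by 0.54 on the log2 scale (SE 0.13, adjusted p = 0.019; 0.0824 without Old replicate 4). Loxl2, which cross-links collagen and elastin, fell by 0.78 (SE 0.17, adjusted p = 0.0125) and Serpine2, a serine protease inhibitor, by 0.87 (SE 0.19, adjusted p = 0.0135). Each of these 2 lost its call in 1 of the 11 fits (Loxl2 without Old replicate 4, at 0.0625, and Serpine2 without Old replicate 2, at an adjusted p of 0.0512). Stromal markers summed to 395.9 to 590.7 CPM in Young and 280 to 414.8 CPM in Old. Of these 10 markers, 2 were called lower (Col1a2 and the pericyte receptor Pdgfrb) and 0 higher, against 4.16% and 5.4% of all genes. Of the markers not called, Col1a1 had a log2 fold change of -0.92 (adjusted p = 0.0665), Pdgfra and Rgs5 of -0.74, Col3a1 of -0.59, Dcn of -0.27 and Acta2 of -0.20, while Lum and Mgp were at 0.54 and 0.63. The part of stromal cells in the matrix genes was not tested.

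In the opposite direction, Mmp3, stromelysin-1, which degrades matrix, was at 0.562 to 2.7 CPM in Young and at 15, 10.45, 18.2 and 3.92 CPM in Old. All Old libraries lay above Young, with a log2 fold change of 2.62 (SE 0.44, adjusted p = 0.00266), and Mmp3 was called in all 11 fits, within the libraries without M (2.51, adjusted p = 0.0387) and with the epithelial covariate (2.80, adjusted p = 0.00477). Plau, urokinase, was at 1.8 to 3.42 CPM in Young and at 4.5, 4.91, 4.7 and 5.41 CPM in Old (log2 change 1.10, SE 0.23, adjusted p = 0.00913; 0.067 within the libraries without M and 0.087 with the epithelial covariate). Spp1, osteopontin, which macrophages and RPE both make, was at 5.43 to 15.3 CPM in Young and at 43.9, 13.1, 29.1 and 21.2 CPM in Old (log2 change 1.43, SE 0.35, adjusted p = 0.0231). It was called in 9 of 11 fits (adjusted p = 0.0572 without Old replicate 1). Col7a1, Col17a1 and Lamb3, which anchor stratified epithelia, were called higher too. Col17a1 was at 2.36 to 64.3 CPM in Young, highest in Young replicate 3, and at 6.95, 108.5, 88.2 and 357 CPM in Old, which is the order of the epithelial markers. Without Old replicate 4 none of the 3 was called (adjusted p = 0.18, 0.294 and 0.113). None was called with the epithelial covariate either, where the log2 fold changes were 0.35, -0.11 and 0.53 in place of 1.56, 2.69 and 2.10.

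2 imprinted genes, expressed from the paternal copy and known for high levels in growing tissue, fell strongly. Mest, at chr6:30733506-30748466, was at 135 to 170 CPM in Young (median 155) and at 86.9, 71, 76.5 and 51.5 CPM in Old (log2 change -1.09, SE 0.13, adjusted p = 0.000135). Peg3, at chr7:6703892-6730462, was at 109 to 138 CPM in Young (median 119) and at 69.2, 40.6, 29.6 and 38 CPM in Old (log2 change -1.46, SE 0.28, adjusted p = 0.00596). The ranges of Old and Young did not overlap for either gene, and both genes were called in all 11 fits, within the libraries without M (adjusted p = 0.0338 and 0.0339) and with the epithelial covariate (-0.92 and -1.37, adjusted p = 0.000997 and 0.0285). Of 25 imprinted genes tested from a list of 32, these were the 2 called lower and 0 were called higher, against 4.16% and 5.4% of all genes. The list as a whole stood lower in every Old library (-0.16 to -0.39) than in any Young one (-0.06 to 0.09), with a median log2 fold change of -0.42 that was -0.51 with the epithelial covariate. Members not called included Igf2 (log2 change -0.99, adjusted p = 0.079) and Sgce (-0.81, adjusted p = 0.083), while Igf2r was close to 0 (-0.04).

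**Figure D3:**
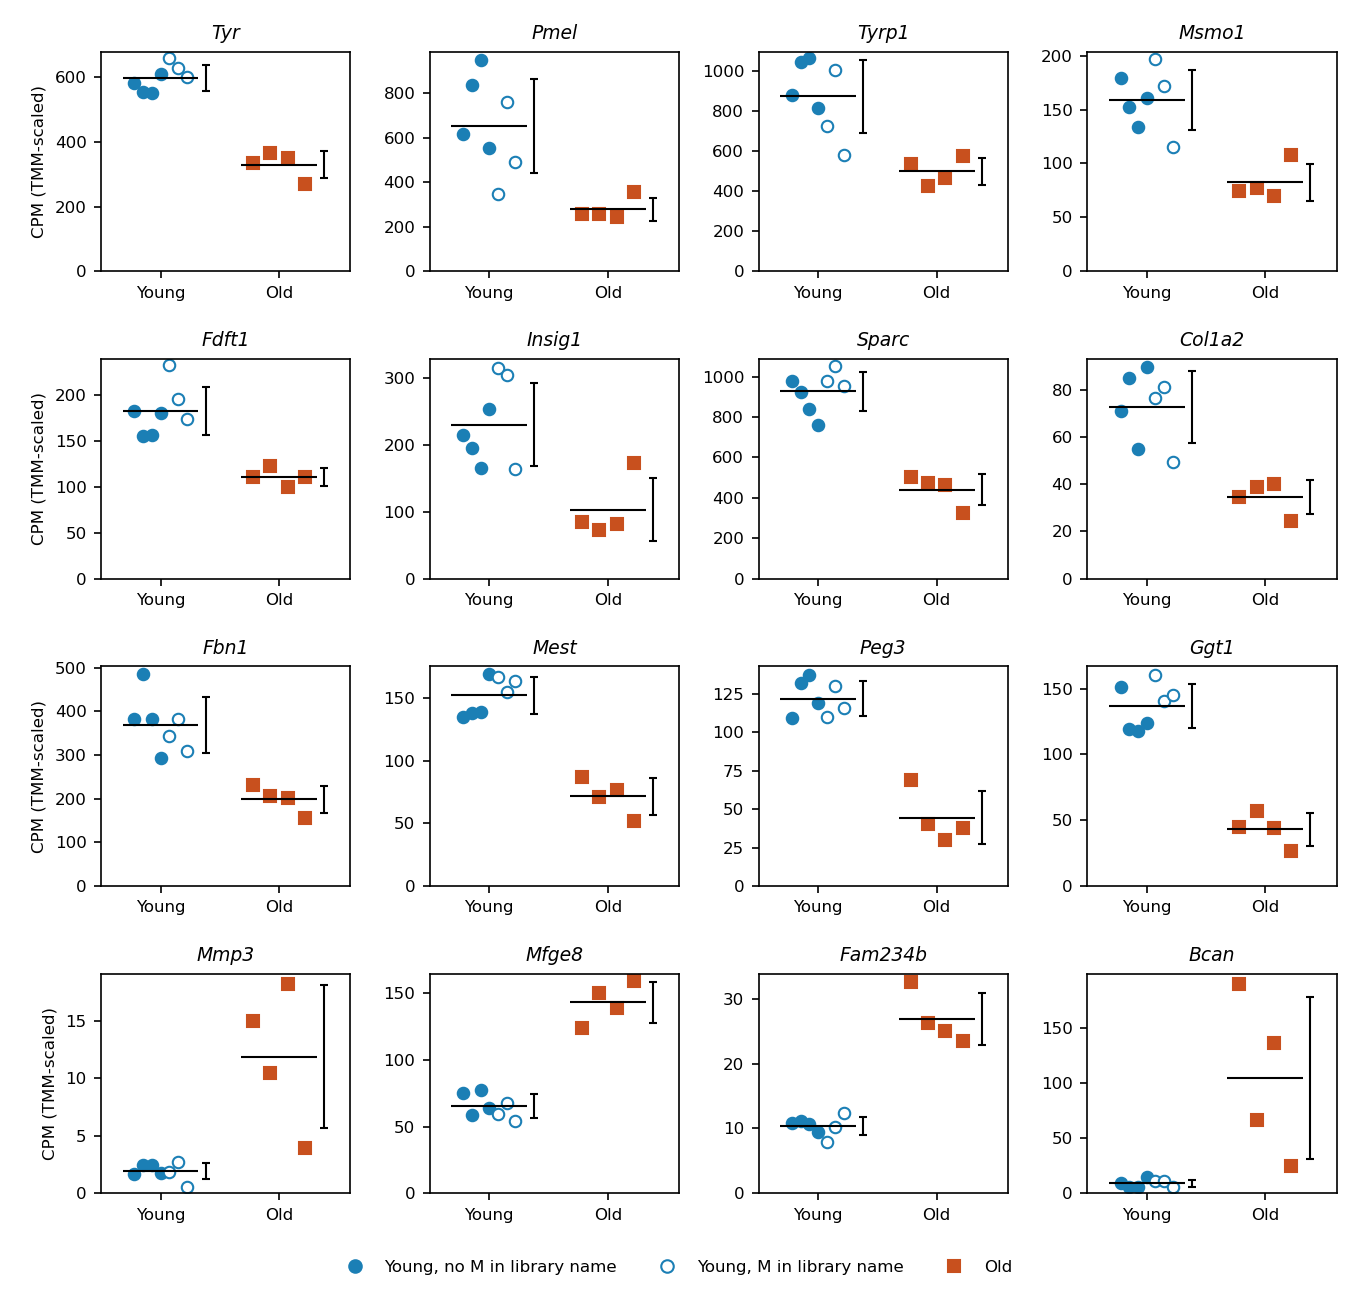
Levels of 16 genes in each library (vertical axis, TMM-scaled CPM from 0; circles Young, open where the library name carries M; squares Old), with the mean as a line and the SD as a bar for 7 Young and 4 Old libraries. Old and Young did not overlap in any panel except Pmel and Insig1, with Old lower in the first 12 panels and higher in Mmp3, Mfge8, Fam234b and Bcan.

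Among developmental signalling genes, more were called lower than higher. Wnt proteins bind Frizzled receptors and the co-receptors Lrp5 and Lrp6, and secreted Sfrp proteins compete with the receptors. Of 51 Wnt pathway genes, 6 were called lower and 1 higher (median log2 fold change -0.18), against 4.16% and 5.4% of all genes. Sfrp1 was at 426 to 477 CPM in Young and at 339, 304.5, 269 and 283 CPM in Old, a log2 fold change of -0.61 (SE 0.12, adjusted p = 0.006) that was called in all 11 fits and within the libraries without M (-0.59, adjusted p = 0.0391), and stood at -0.54 with the epithelial covariate (adjusted p = 0.0513). Lrp6 (log2 change -0.57, adjusted p = 0.0152) and Fzd8 (-0.80, adjusted p = 0.022) fell in every Old library below every Young one and were lost without Old replicate 4 (adjusted p = 0.0721 and 0.103). Lgr4, the R-spondin receptor, was called both without the covariate (log2 change -0.44, SE 0.12, adjusted p = 0.0301) and with it (-0.61, adjusted p = 0.00849). It was called in 7 of the 11 fits (adjusted p = 0.0861 without Old replicate 2). The gene called higher, Wnt10a, was at 0.67, 12.5, 13.1 and 18.7 CPM in Old against at most 5.83 CPM in Young (Young replicate 3), and its log2 fold change of 2.56 was 0.45 with that covariate (adjusted p = 0.709).

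In the TGF-beta and BMP list, 5 of 42 genes were called lower and 1 higher, against 4.16% and 5.4% of all genes. The 2 TGF-beta ligands moved in opposite directions. Tgfb1 was at 4.6 to 7.72 CPM in Young and at 8.05, 10.6, 11.9 and 11.1 CPM in Old (log2 change 0.82, SE 0.15, adjusted p = 0.00433). Tgfb3 was at 24.7 to 36.6 CPM in Young and at 22.5, 15.7, 14.9 and 15.8 CPM in Old (log2 change -0.86, SE 0.16, adjusted p = 0.00491). Both were called in all 11 fits and with the epithelial covariate (adjusted p = 0.0471 and 0.0268), and neither within the libraries without M (0.0935 and 0.0632). The receptors Bmpr1a and Bmpr2 fell by 0.29 and 0.30 on the log2 scale (adjusted p = 0.0205 and 0.0255). Each was called in 8 of 11 fits, with the highest adjusted p without Old replicate 2 for Bmpr1a (0.0687) and without Old replicate 4 for Bmpr2 (0.12). Tgfb1 is also made by macrophages, whose 15 markers summed to 525 to 702.4 CPM in Young and 835.9 to 1354 CPM in Old (12 called higher); their part in Tgfb1 was not tested.

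Of 52 genes of axon guidance and adhesion, 3 were called lower and 0 higher, a share near the 4.16% of all genes called lower. Dab1, the adaptor that carries the reelin signal inside the cell, was at 37.6 to 42.9 CPM in Young and at 18.1, 18, 17.3 and 21.4 CPM in Old. Its spread within groups was small, and the log2 fold change of -1.12 (SE 0.14, adjusted p = 0.000147) was called within the libraries without M (-1.11, adjusted p = 0.00758) and with the epithelial covariate (-1.18, adjusted p = 0.000732). Vldlr, a reelin receptor, fell by 0.52 (adjusted p = 0.0353; 0.15 without Old replicate 4). Among 31 angiogenic and hypoxia genes 4 were called lower and 2 higher, against 4.16% and 5.4% of all genes. Angpt1, a ligand that stabilises vessels, was at 6.75 to 11.6 CPM in Young and at 5.99, 2.77, 4.57 and 5.14 CPM in Old (log2 change -1.0, SE 0.24, adjusted p = 0.022; 0.0673 without Old replicate 2). Pdgfc fell by 0.90 (adjusted p = 0.0233; 0.109 without Old replicate 4). Flt1, a VEGF receptor of endothelium, was at 7.99 to 32.6 CPM in Young and at 22.6, 69.1, 45.6 and 26.6 CPM in Old (log2 change 1.37, SE 0.36, adjusted p = 0.0287; 0.108 without Old replicate 2). Endothelial markers summed to 85.75 to 322.4 CPM in Young and to 143, 395, 240 and 104.5 CPM in Old, with 0 of 10 called. Egln3 followed the epithelial markers, at 12.4, 67, 55 and 215 CPM in Old, and its log2 fold change of 2.54 was 0.24 with that covariate (adjusted p = 0.671).

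Genes of RPE function and junctions are set beside the 9.56% of all genes called. Of the 15944 genes tested, 4619 had an unadjusted p under 0.05. Of 12 visual cycle genes and 17 RPE transcription factors, 0 were called, with 3 and 4 at an unadjusted p under 0.05. Lists this short cannot set 0 calls apart from the 9.56% called. DESeq2 called 0 and 2. All 12 visual cycle genes had a negative log2 fold change, with a median of -0.35. The list stood at -0.97 relative to Young in Old replicate 4, which also had the lowest RPE marker sum, and at -0.18, -0.23 and -0.17 in the other Old libraries. The median was -0.23 without Old replicate 4 and 0.02 with the epithelial covariate. Rdh11, the member with the lowest p, had a log2 fold change of -0.49 (adjusted p = 0.11). Of 22 ion channels and transporters (median -0.34, and -0.13 with the epithelial covariate) 1 was called, Slc26a7 (log2 change -0.71, adjusted p = 0.0472; 0.189 without Old replicate 4). The phagocytosis list had 3 of 17 called higher and 1 lower (median -0.05), against 5.4% and 4.16% of all genes. Mfge8, which bridges exposed phosphatidylserine to the integrin of the RPE, was at 54 to 77.5 CPM in Young and at 123.9, 150.2, 139 and 159 CPM in Old. The log2 fold change was 1.13 (SE 0.18, adjusted p = 0.00195), called in all 11 fits, within the libraries without M (1.06, adjusted p = 0.0174) and with the epithelial covariate (0.94, adjusted p = 0.0245). Cd36, a scavenger receptor for oxidised lipid, was at 1.8 to 4.1 CPM in Young and at 8.86, 4.81, 5.55 and 8.31 CPM in Old (log2 change 1.25, SE 0.24, adjusted p = 0.00652; 0.0547 within the libraries without M). Itgb5, the integrin chain, fell by 0.42 (SE 0.11, adjusted p = 0.0304; 0.142 without Old replicate 4). Macrophages express Mfge8 and Cd36 too, and their part in these rises was not tested. Among junction genes, Cldn2 was at 142 to 216 CPM in Young and at 101 to 104 CPM in all 4 Old libraries (log2 change -0.77, SE 0.16, adjusted p = 0.00922), called in all 11 fits and at 0.0707 with the epithelial covariate. Cldn3, Marveld2 and Marveld3, called higher, were highest in Old replicate 4 and had adjusted p of 0.621, 0.518 and 0.157 with that covariate.

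Of 41 glutathione genes 4 were called lower and 3 higher, against 4.16% and 5.4% of all genes (median log2 fold change 0.10). Ggt1, the surface enzyme that opens extracellular glutathione for reuse, fell from 118 to 160 CPM in Young to 45.1, 56.9, 43.7 and 26.3 CPM in Old (3.18-fold, log2 fold change -1.67, SE 0.21, adjusted p = 0.000271). It was called in all 11 fits, within the libraries without M (-1.57, adjusted p = 0.0243) and with the epithelial covariate (-1.499, adjusted p = 0.00308). Gclc and Gclm, the catalytic and modifier subunits of the enzyme that limits glutathione synthesis, fell by 0.52 and 0.38 on the log2 scale (adjusted p = 0.00451 and 0.0347). Gclc was called in all 11 fits and with the epithelial covariate (adjusted p = 0.0375), but not within the libraries without M (0.0932), and Gclm in 4 of 11 fits (adjusted p = 0.153 without Old replicate 4). Gstk1, a peroxisomal and mitochondrial glutathione transferase, was at 13.1 to 21.6 CPM in Young and at 37.9, 34.3, 34 and 27.6 CPM in Old (log2 change 0.82, SE 0.18, adjusted p = 0.0139; 0.0574 within the libraries without M; 1.06 with the epithelial covariate, adjusted p = 0.0107). Nqo1, a quinone reductase under NRF2, was at 142 to 252 CPM in Young and at 119, 107, 97.1 and 77.7 CPM in Old (log2 change -0.96, SE 0.20, adjusted p = 0.00828; 0.0581 within the libraries without M and 0.0889 with the epithelial covariate).

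Gsta4, the glutathione transferase that clears lipid aldehydes and appears in the series title, was called higher. Its levels in Old replicates 1 to 4 were 448, 1133, 904 and 2287 CPM, and those in Young 403 to 679 CPM with the highest in Young replicate 3. That is the order of the epithelial markers in Old, and Young replicate 3 had the most of them among Young. The log2 fold change was 1.29 (SE 0.36, adjusted p = 0.0376), 0.77 without Old replicate 4 (adjusted p = 0.257), 1.22 within the libraries without M (adjusted p = 0.164) and 0.24 with the epithelial covariate (adjusted p = 0.749). Aldh3a1, an aldehyde dehydrogenase abundant in corneal epithelium, was at 67.3, 432, 369 and 2598 CPM in Old and 12.9 to 398 CPM in Young. Its log2 fold change of 2.82 (SE 0.84, adjusted p = 0.0453; 0.429 without Old replicate 4) became -0.09 with the covariate. Mgst2 was called at low level, with 0.0479, 2.98, 1.83 and 2.12 CPM in Old against at most 0.326 CPM in Young (log2 change 3.34, adjusted p = 0.00688; 0.222 with the epithelial covariate). The part of the epithelial RNA in the levels of Gsta4, Aldh3a1 and Mgst2 was not tested.

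The levels of ribosomal protein, immediate early and replication genes were highest in the Old libraries with most epithelial RNA. Of 75 cytosolic ribosomal protein genes 42 were called higher and 0 lower (median log2 fold change 0.65). Their median level, relative to Young, was 0.14, 0.52, 0.41 and 1.25 in Old replicates 1 to 4 and -0.18 to 0.20 in Young. Of 23 immediate early genes 10 were called higher (median 0.92), at 0.05, 1.20, 1.04 and 1.49 in Old. Of 35 replication and mitosis genes 2 were called higher, a share near the 5.4% of all genes (median 0.74), at -0.26, 1.08, 0.35 and 1.45 in Old. Of 32 senescence and p53 genes 3 were called, a share near the 9.56% of all genes (median -0.02). Without Old replicate 4, 0 ribosomal protein genes and 1 immediate early gene were called higher, against 1.47% of all genes. The medians were then 0.36 and 0.72. Within the libraries without M the calls were 0 and 1, against 0.694% of all genes, with medians of 0.59 and 0.93. With the epithelial covariate 0 genes were called in both lists, against 1.03% of all genes called higher. The medians were then 0.24 and 0.41, with 0.01 for replication. Junb, an AP-1 subunit, was at 11.1 to 32 CPM in Young and at 12.2, 69.3, 50.4 and 101 CPM in Old, so that Old replicate 1 did not rise (log2 change 1.79, SE 0.42, adjusted p = 0.0194; 0.118 without Old replicate 4; 0.47 with the covariate, adjusted p = 0.403). Cdkn1a, the cell cycle inhibitor p21, was at 9.44, 32.8, 25.8 and 64.4 CPM in Old against 5.4 to 27.1 CPM in Young (log2 change 1.56, adjusted p = 0.0355; 0.229 without Old replicate 4; 0.34 with the covariate, adjusted p = 0.442). Hspa1b, a stress-induced chaperone with a near-identical copy in the genome, had a log2 fold change of 2.20 (adjusted p = 0.0303; 0.184 without Old replicate 4), and of 0.38 with the covariate. Ribosomal protein genes have many processed copies as well, so their counts depend on how the authors treated shared reads.

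Other members of these lists included Atf3, a stress-response factor. Its level was 0.347 to 3.83 CPM in Young and 4.41, 10.97, 7.31 and 11.03 CPM in Old (log2 change 2.35, SE 0.47, adjusted p = 0.00695; 1.80 with the covariate, adjusted p = 0.07; 0.0747 within the libraries without M). Its Old libraries stood in the order of the epithelial markers, and Young replicate 3 was the highest Young library for both. Cxcl12, a chemokine, was at 10.2 to 13.4 CPM in Young and at 17.2, 20.4, 22.7 and 17.8 CPM in Old, with Old replicate 1 as high as Old replicate 4. It was called with the covariate (0.85, adjusted p = 0.0417) and without it (0.76, SE 0.17, adjusted p = 0.0157), and within the libraries without M (adjusted p = 0.0459), and missed the threshold only without Old replicate 3 (0.0505) among the 11 fits without 1 library. Bub1b, a spindle checkpoint kinase, was at 13.1 to 20.7 CPM in Young and at 26.2, 25.2, 22.9 and 24.1 CPM in Old (log2 change 0.59, SE 0.18, adjusted p = 0.0477). The groups were apart, yet Bub1b missed the threshold in each of the 11 fits that left out a library (adjusted p up to 0.143) and with the covariate (0.0584), and was called within the libraries without M (0.0348).

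**Figure D4:**
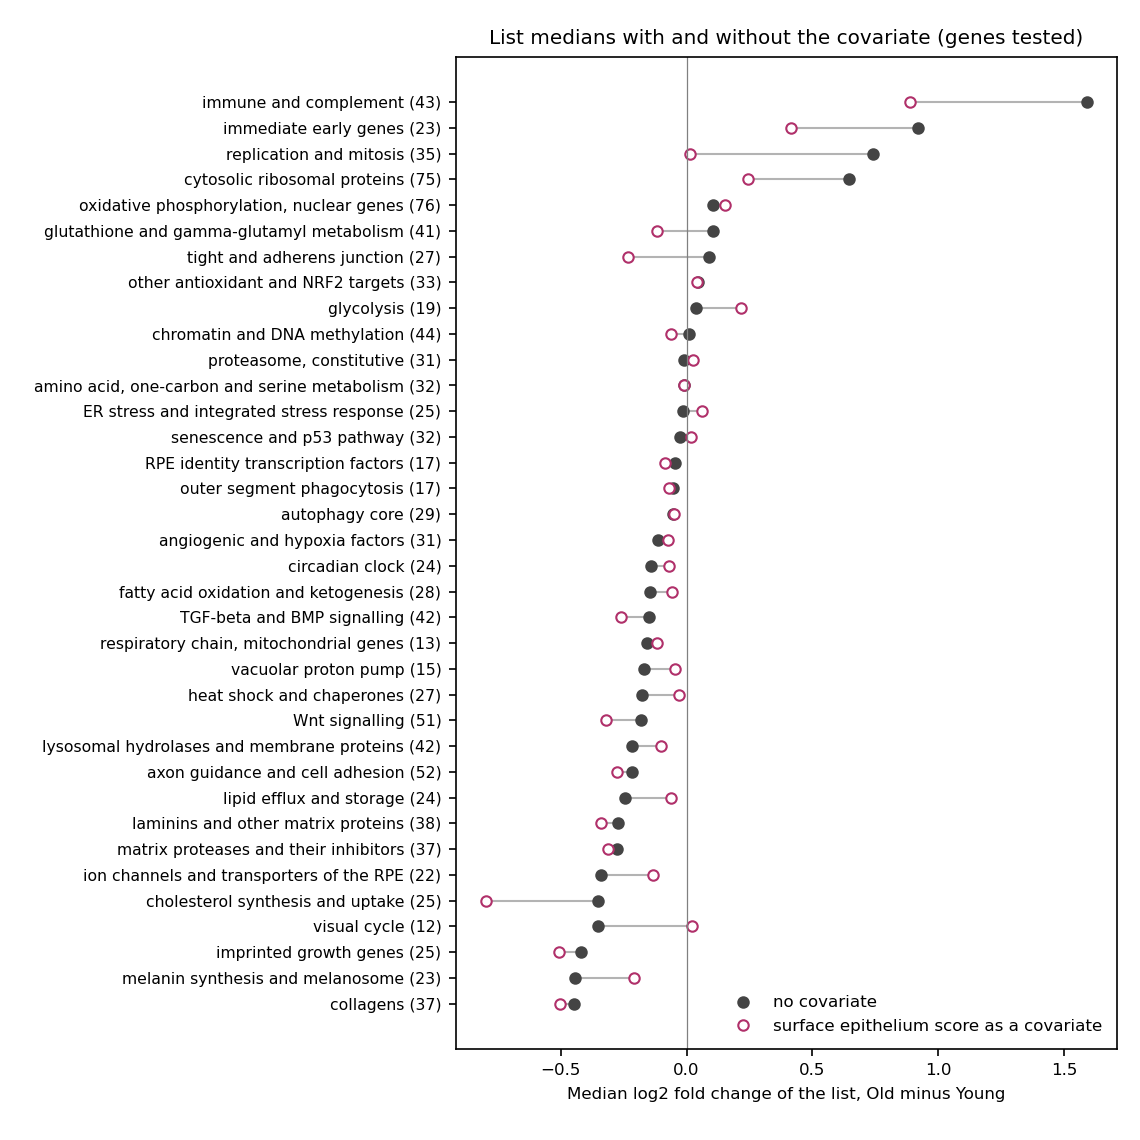
Median log2 fold change, Old minus Young (horizontal axis), of 36 gene lists (rows, with the number of genes tested), without a covariate (filled) and with the surface epithelium score as a covariate (open). The cholesterol list moved from -0.35 to -0.80, replication from 0.74 to 0.01 and ribosomal proteins from 0.65 to 0.24, while imprinted and collagen genes moved by less than 0.1.

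Genes of energy metabolism and protein turnover are set beside the 9.56% of all genes called. An unadjusted p under 0.05 was found in 4619 of the 15944 genes tested. Of 76 nuclear genes of oxidative phosphorylation, 13 mitochondrial ones, 29 autophagy genes and 31 constitutive proteasome genes, 0 were called by edgeR, with 16, 4, 3 and 2 at an unadjusted p under 0.05. DESeq2 called 0, 2, 1 and 0. The medians were 0.10, -0.16, -0.05 and -0.01. Of 42 lysosomal genes 2 were called lower, a share near that of all genes: Asah1, acid ceramidase (log2 change -0.43, SE 0.09, adjusted p = 0.00701, called in all 11 fits; 0.0858 within the libraries without M and 0.0616 with the epithelial covariate), and Ctsf (-0.29, adjusted p = 0.0422; 0.188 without Old replicate 4). Of 15 subunits of the vacuolar proton pump 1 was called lower, Atp6v1a (-0.36, adjusted p = 0.04; 0.182 without Old replicate 4). Dnmt3a, the de novo DNA methyltransferase, was at 75.5 to 93.1 CPM in Young and at 64.1, 54.2, 70.5 and 49.8 CPM in Old (log2 change -0.53, SE 0.11, adjusted p = 0.00703), called in all 11 fits. It missed the threshold within the libraries without M (adjusted p = 0.081) and with the epithelial covariate (0.055).

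Outside the lists, and leaving out genes that match a set of immune gene names, those that rose with the lowest p were Fam234b, Crlf2, Zc3hav1, Tmem184a, Bcan, Atp10a, Tmsb10 and Trnp1. Fam234b, a membrane protein, was at 7.99 to 12.4 CPM in Young and at 32.7, 26.3, 25.1 and 23.5 CPM in Old. It rose by 1.37 on the log2 scale (2.59-fold, SE 0.12, adjusted p = 7.33e-06), and by 1.52 with the epithelial covariate (adjusted p = 1.21e-05). Bcan, brevican, a proteoglycan of neural matrix, was at 5.68 to 14.6 CPM in Young and at 191, 67, 137 and 25 CPM in Old, the lowest in the library with the most epithelial RNA. The log2 fold change was 3.53 (11.6-fold, SE 0.51, adjusted p = 0.000845), and 3.96 with the covariate (adjusted p = 0.000537). Crlf2, a cytokine receptor chain, and Zc3hav1, an antiviral RNA-binding protein, also act in immunity and were not on that set. Zc3hav1 was at 7.26 to 15.2 CPM in Young and at 29.7, 32.2, 30.1 and 41.9 CPM in Old (log2 change 1.58, SE 0.17, adjusted p = 6.09e-05). Atp10a, a phospholipid flippase, rose by 2.12 (SE 0.34, adjusted p = 0.00169) and Trnp1, a nuclear protein, by 2.07 (SE 0.33, adjusted p = 0.00176). All 8 were called in all 11 fits, within the libraries without M and with the epithelial covariate. Rtp4, Stmn1 and Rnase4 met the same rule, and Rnase4 missed the threshold with the covariate (adjusted p = 0.0769).

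Beside the genes described above, those that fell with the lowest p were Slc16a4, Dcaf12l1, Atxn7l3b, Manea, Tspan2 and Zdhhc2, each apart between the groups. Slc16a4, a monocarboxylate transporter, was at 27.1 to 36.2 CPM in Young and at 21.6, 19.5, 17.3 and 13.4 CPM in Old (log2 change -0.89, SE 0.12, adjusted p = 0.000308). Tspan2, a tetraspanin, was at 9.34 to 17.6 CPM in Young and at 5.36, 4.96, 3.78 and 3.35 CPM in Old (log2 change -1.65, SE 0.23, adjusted p = 0.000725). Zdhhc2, a palmitoyltransferase, fell by 0.75 (SE 0.11, adjusted p = 0.000787), to 118, 112, 108 and 92.5 CPM from 156 to 206 CPM. All 6 were called in all 11 fits, within the libraries without M and with the epithelial covariate. Among the largest falls was also Lpar4, a lysophosphatidic acid receptor (log2 change -1.73, adjusted p = 0.00916). Mip, the lens water channel, had a log2 fold change of -4.53 (SE 1.16, adjusted p = 0.027). It was at 90.6 CPM in Young replicate 1, 1.66 to 6.32 CPM in the other Young libraries and 0.575 to 0.888 CPM in Old, and missed the threshold without Old replicate 4 (adjusted p = 0.105). 6 lens markers summed to 2605 CPM in Young replicate 1, 7.92 to 920.7 CPM in the other Young libraries and 13.1 to 66.6 CPM in Old.

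The direction of change also varied with gene length, taken in 10 bins of equal number. Of the genes tested, 15866 (99.5%) had a span in RefSeq GRCm38.p6. In the bin of shortest genes (0.249 to 4.35 kb) the median log2 fold change was 0.11, with 8.76% called higher and 1.95% lower. In the bin of longest genes (131.8 to 2390 kb) it was -0.08, with 2.58% called higher and 6.805% lower, and the medians fell in every step between. Per library, the difference between these 2 bins was 0.06, 0.12, 0.27 and 0.20 in Old and -0.12 to 0.13 in Young, so the groups overlapped.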

How the data were processed

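Libraries were prepared with SMART-Seq v4 and Nextera XT reagents, per the labels' protocols, a chemistry that does not mark the strand. The authors deposited unnormalized read counts by gene symbol, 1 column for each of 18 libraries. The submitters' processing notes name STAR 2.7.1a, featureCounts 1.6.2 and the builds GRCh38, hg38, GRCm38 and mm10, with no role for each. The treatment of shared reads is not given in the sources used here. Replicate libraries of a group differed by more than sampling noise (lowest chi-square per gene 21.2).

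The counts were fitted with edgeR 4.0.16 (R 4.3.3): TMM scaling, filterByExpr with a minimum count of 10 and a minimum total of 15, 4 group means over 18 libraries and the quasi-likelihood test of Old minus Young. Of 21859 genes 15944 were tested. A gene was called at a Benjamini-Hochberg adjusted p under 0.05 over all tested genes. SE is the log2 fold change divided by the root of F, and CPM are TMM-scaled. Fits without 1 library, with other filters and scalings, with M, a rod score or a replicate block, on the 11 libraries alone and with DESeq2 1.42.0 were alternatives. The fits with the surface epithelium score, and that without M and without Old replicate 4, were added after seeing the data, as was the epithelial marker list. The code was tested on simulated data.

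Members and lists were chosen with earlier results of these data known. Genes were named by rule: the 12 per direction with the lowest p at a mean log2 CPM of at least 3, the 6 per direction with the largest fold whose groups do not overlap, and up to 4 called members per list with the lowest p, immune and sex-linked genes left out. Some genes that meet it are not described or not reported here. Tyrp1, Hmgcs1, Mvd, Dhcr7, Idi1, Sqle, Srebf2, Col4a4, Cldn3, Lamb3, Wnt10a, Gclm, Gsta4, Sox10, Dct, Igf2, Sgce and Igf2r were named after their values were seen. Sequences and spans are from RefSeq GRCm38.p6, matched by symbol.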

Additional observations from a re-analysis of the deposited data

Results flagged for a closer look

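In 32 of 248 groups (the named genes, in Young and in Old, 12.9%), 1 library stood far from the rest of its group by Dixon's criterion, which chance meets in about 1 in 20 groups. Of these, 12 were at Old replicate 4, the library with the most surface epithelium RNA and the least of the RPE markers. Its values, in CPM, with the range of the other Old libraries, were 354 for Pmel (243 to 257), 173 for Insig1 (72.3 to 84.8) and 142 for Sqle (80.1 to 86.7), which put these genes nearer to Young. They were 2600 for Aldh3a1 (67.3 to 432), 39.5 for Abcg1 (15.9 to 16.4), 34 for Mreg (8.42 to 9.46) and 24.4 for Pfkfb3 (8.57 to 9.8). For the ribosomal protein genes Rps15 and Rps27 they were 320 (182 to 204) and 149 (91.6 to 99.4). Slc24a5 was at 116 (170 to 177), Hmga1 at 62.6 (36.9 to 41.2) and Lpar4 at 2.06 (1.44 to 1.46).

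Young replicate 3, the Young library with the most surface epithelium RNA, stood apart on the high side for several genes. Its values, in CPM, with the range of the other Young libraries, were 398 for Aldh3a1 (12.9 to 123.1), 679 for Gsta4 (403 to 502), 59.6 for Hspa1b (7.09 to 28.6) and 32 for Junb (11.1 to 18.2). Cdkn1a was at 27.1 (5.4 to 11.8), Cldn3 at 16.5 (1.01 to 6.16), Tmem184a at 12.4 (5.62 to 8.03) and Lamb3 at 11.9 (2.36 to 5.72). Marveld3 was at 5.87 (0.675 to 2.2), Wnt10a at 5.83 (0 to 2.06), Myc at 3.59 (0.337 to 1.3) and Plau at 3.42 (1.8 to 2.45). Gstk1 was low in the same library, at 13.1 (18.8 to 21.6). The part of the epithelial RNA in these values was not tested.

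The remaining values stood apart in other libraries. Mip, a lens gene, was at 90.6 CPM in Young replicate 1 (1.66 to 6.32 in the other Young libraries). Flt1 was at 32.6 CPM in Young replicate 4 (7.99 to 16.6) and Psmd1 at 204 CPM in Young replicate 5 (130.0 to 161). In Young replicate 7, Slc16a4 was at 27.1 CPM (32.4 to 36.2) and Pdgfc at 44.2 CPM (20.9 to 29.2). In Old replicate 1, Tgfb3 was at 22.5 CPM (14.9 to 15.8 in the other Old libraries) and Pard6b at 61.6 CPM (56.4 to 56.5).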

How the results depend on the processing

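The counts of 861 genes called higher and 663 lower moved most with the libraries and covariates used. They were 315 and 285 with M as a covariate, 105 and 86 in the libraries without M, 48 and 51 in those without M and without Old replicate 4, 284 and 200 with a rod score, 164 and 168 with the surface epithelium score, and 146 and 144 with that score and M. Leaving out 1 library gave 233 to 1422 higher and 160 to 734 lower, with the lowest of both without Old replicate 4. DESeq2 called 1525 higher and 927 lower. Without a low-count filter 396 were called lower, and with a mean of at least 50 counts 393. With replicate numbers as a replicate block, edgeR called 0 and 0 (2269 genes at an unadjusted p under 0.05). Same-numbered Young and Old libraries did not clearly deviate together (r = 0.147, 0.009, 0.213 and -0.373). With 4 libraries a group and large differences between them, these values cannot exclude pairing by number. With the surface epithelium score, and with it and M, the log2 fold change turned sign for Col17a1 (-0.11 and -0.073), Aldh3a1 (-0.085 and -0.11) and Sox10 (0.15 and 0.12; 0.15 without M and without Old replicate 4). Of 113 named genes called, 71 missed the threshold in the libraries without M. The cause of these shifts was not tested. No other direction among the named genes turned in any alternative run. No Old library carries M and the Old group has 4 libraries, which limits what the fits within libraries without M can detect.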
